A study of Mus musculus with 6 samples.

Results

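Collagen genes were followed in primary mouse myoblasts that had received a short hairpin RNA (shRNA) directed at the long non-coding RNA LncMyoD, studied in muscle differentiation. The members were all probe sets with exactly 1 gene symbol in GEO's platform annotation whose symbol was Col, a number, the letter a and a number. They comprised 82 probe sets for 42 genes, out of 45101 probe sets and 18194 named genes on the array. By textbook family, 11 of the genes encode fibrillar chains, 6 basement membrane (type IV) chains, 9 fibril-associated chains with interrupted helices (FACIT) and 16 other collagens.

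The groups were 3 arrays of myoblasts treated with LncMyoD shRNA and 3 arrays of control myoblasts, each array an Affymetrix mouse whole-genome chip. Hairpins were placed in a Tet-pLKO-puro vector and carried into the cells by lentivirus. The labels name media for growth and for differentiation. They leave unsaid which of these the profiled cells were kept in, what the controls received and whether the inducible vector was switched on. The level of LncMyoD itself was not analysed here, because no probe set was named for it. All 6 samples carry an age of 21 days and the replicates are called biological, but separate animals or cultures are not mentioned. The p-values therefore cover only the variation among these 6 arrays, which may be technical. Values are the authors' normalized log2 signals, on which a difference of 1 is a doubling, and differences are LncMyoD shRNA minus control throughout.

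Muscle genes were among the bright signals of both groups. Most of the marker list differed between the groups, as did 58.5% of all tested genes. Des was at 13.26 in shRNA samples and 13.22 in controls, and Myod1 at 13.82 in shRNA samples and 13.80 in controls. These were the only 2 of the 8 muscle markers that did not pass limma's test. Ckm, the creatine kinase of differentiated muscle, was at 9.11 in shRNA samples and 10.53 in controls, a 2.66-fold decrease (-1.41, SE 0.061, limma adjusted p = 2.19e-09). The differentiation genes Myog (-0.13), Myh3 (-0.15) and Acta1 (-0.09) were also lower. Pax7, the satellite cell transcription factor, rose by 0.66 (SE 0.051), and Cdh15, the M-cadherin of myoblasts, rose by 0.40 (SE 0.037). The list had a summed level of 16.29 to 16.34 on shRNA arrays and 16.31 to 16.38 on control arrays. Of 12 fibroblast markers 11 had a named probe set and 3 could be tested, of which Pdgfra rose by 0.89 and the other two did not pass. Their summed level was 9.49 to 9.62 on shRNA arrays and 9.28 to 9.36 on control arrays, and Dcn, Lum and Dpt lay at 5.61, 5.10 and 5.28 in shRNA samples and at 5.41, 5.24 and 5.27 in controls, all below the lowest tested mean of 6.50. Endothelial markers had 0 testable members, with a summed level of 8.26 to 8.58 on shRNA arrays and 8.38 to 8.56 on control arrays. Adipocyte markers also had 0, at 7.55 to 7.82 on shRNA arrays and 7.60 to 7.69 on control arrays. Of 5 leukocyte markers 2 were tested, and the list had a summed level of 8.33 to 8.52 on shRNA arrays and 8.25 to 8.34 on control arrays. Of these Cd68 rose by 0.33, but its control mean of 6.40 lay below the lowest tested mean. Of 6 smooth muscle and pericyte markers 4 were tested, of which Mcam rose by 0.72 and the other 3 did not pass. Their summed level was 12.88 to 13.02 on shRNA arrays and 12.17 to 12.42 on control arrays. Most of it came from Mcam itself, at 12.81 in shRNA samples and 12.08 in controls. Among 7 tendon and cartilage markers, at 12.68 to 12.77 on shRNA arrays and 12.37 to 12.51 on control arrays, Mkx rose by 0.92 and Scx fell by 0.20. The log2 ratio of 3' to 5' signal, a sign of RNA integrity, averaged 0.551 on shRNA arrays and 0.507 on control arrays for actin, and 0.225 on shRNA arrays and 0.140 on control arrays for GAPDH. The groups did not overlap for either transcript. Actin lay at 0.532 to 0.567 on shRNA arrays and 0.487 to 0.519 on control arrays. GAPDH lay at 0.189 to 0.264 on shRNA arrays and 0.0937 to 0.184 on control arrays. The part of these markers and of RNA integrity in the results below was not tested, and in bulk RNA fewer cells of a type cannot be told apart from less RNA per cell.

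Collagens are proteins in which chains of repeated glycine-containing triplets wind around each other into a helix. Fibrillar chains are secreted with propeptides that are cleaved before the helices pack into fibrils, FACIT collagens sit on the surface of those fibrils, and type IV collagen forms the sheet of basement membranes. In muscle, collagens build the connective tissue around fibres and the basement membrane under which satellite cells, the muscle stem cells, lie.

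The 120 bases before the annotated start of several genes that the results turn on are printed here 5' to 3' on the strand of the gene, from RefSeq on build GRCm38.p6. Col1a2, Col3a1 and Col5a1 are fibrillar genes that fell, Col5a3 is the fibrillar gene that rose and Col25a1 had the largest increase among the tested collagens. Col18a1 is shown at both of its annotated starts, because its probe sets moved in opposite directions. The stretches lie at chr6:4505498-4505617 (plus strand), chr1:45311418-45311537 (plus), chr2:27886305-27886424 (plus), chr9:20815068-20815187 (minus), chr3:130180725-130180844 (plus), chr10:77166531-77166650 (minus) and chr10:77113706-77113825 (minus), in the order printed. Capitals mark matches to 3 motifs on either strand, wherever they lie: CCAAT (as in the CCAAT box), GGGCGG (as in the GC box bound by Sp1) and TATAAA (as in the TATA box).
Col1a2: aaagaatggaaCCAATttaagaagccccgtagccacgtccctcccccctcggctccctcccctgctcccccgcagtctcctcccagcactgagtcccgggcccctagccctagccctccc
Col3a1: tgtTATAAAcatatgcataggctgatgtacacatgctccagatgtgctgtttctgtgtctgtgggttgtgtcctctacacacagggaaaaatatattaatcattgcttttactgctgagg
Col5a1: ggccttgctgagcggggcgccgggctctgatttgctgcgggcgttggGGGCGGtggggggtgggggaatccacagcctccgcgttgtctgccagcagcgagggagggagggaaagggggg
Col5a3: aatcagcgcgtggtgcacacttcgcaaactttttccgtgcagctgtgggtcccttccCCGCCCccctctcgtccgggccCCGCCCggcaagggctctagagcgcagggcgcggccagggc
Col25a1: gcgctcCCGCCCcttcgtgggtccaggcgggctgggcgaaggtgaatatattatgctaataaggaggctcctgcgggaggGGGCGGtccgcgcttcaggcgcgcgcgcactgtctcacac
Col18a1, first start: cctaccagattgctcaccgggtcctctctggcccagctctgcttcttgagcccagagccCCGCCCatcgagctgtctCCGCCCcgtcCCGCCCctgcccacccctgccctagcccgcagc
Col18a1, second start: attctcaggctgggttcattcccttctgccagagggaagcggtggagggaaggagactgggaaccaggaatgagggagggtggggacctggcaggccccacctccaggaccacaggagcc

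The wider window of 250 bases before each start was searched on both strands for these 3 motifs and for CANNTG, the E-box that myogenic factors can bind. Matches were searched separately for each motif. Of the 19 tested collagen genes 13 had an entry, and 7 of these held a match to CCAAT, 8 to GGGCGG, 3 to TATAAA and 5 to CANNTG. Over all 32851 promoter windows of the table the shares were 33.8%, 32.7%, 12.4% and 66.2%. In Col1a2, a CCAAT match ended 105 bases before the start, and in Col3a1 the TATAAA match ended 112 bases before it. In Col25a1 the nearest GGGCGG match ended 35 bases before the start and in Col5a3 36 bases. The window of Col3a1 held 4 E-box matches, whereas those of Col1a2, Col5a1 and Col25a1 held 0. These matches describe the sequence and do not show that a factor binds there.

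Of the 42 collagen genes, 19 had a probe set bright enough to be tested, with a mean over all arrays of 6.50 or more. Among those 19, 11 were lower and 5 higher in the LncMyoD shRNA samples, and 3 did not pass an adjusted p of 0.05 in limma's test across all 27022 tested probe sets. Over all 12408 tested genes 22.8% were lower and 35.7% higher, or 58.5% in either direction. The median difference of the 19 was -0.30, beside 0.05 over all tested genes. For 16 of the 19 genes the arrays of both groups stood fully apart, beside 64.8% of all tested genes. Sizes were moderate: the median size among the 16 that passed was 0.47, against 0.35 among all genes that passed. With each array centred on its median, 3 collagens were higher and 11 lower, and over all genes 3627 were higher and 3663 lower, so the balance over all genes depended on the scaling. Col13a1 and Col22a1 entered the test with an shRNA mean below the filter, and neither passed. The 11 lower genes include Col18a1, whose second probe set was higher.

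**Figure D1:**
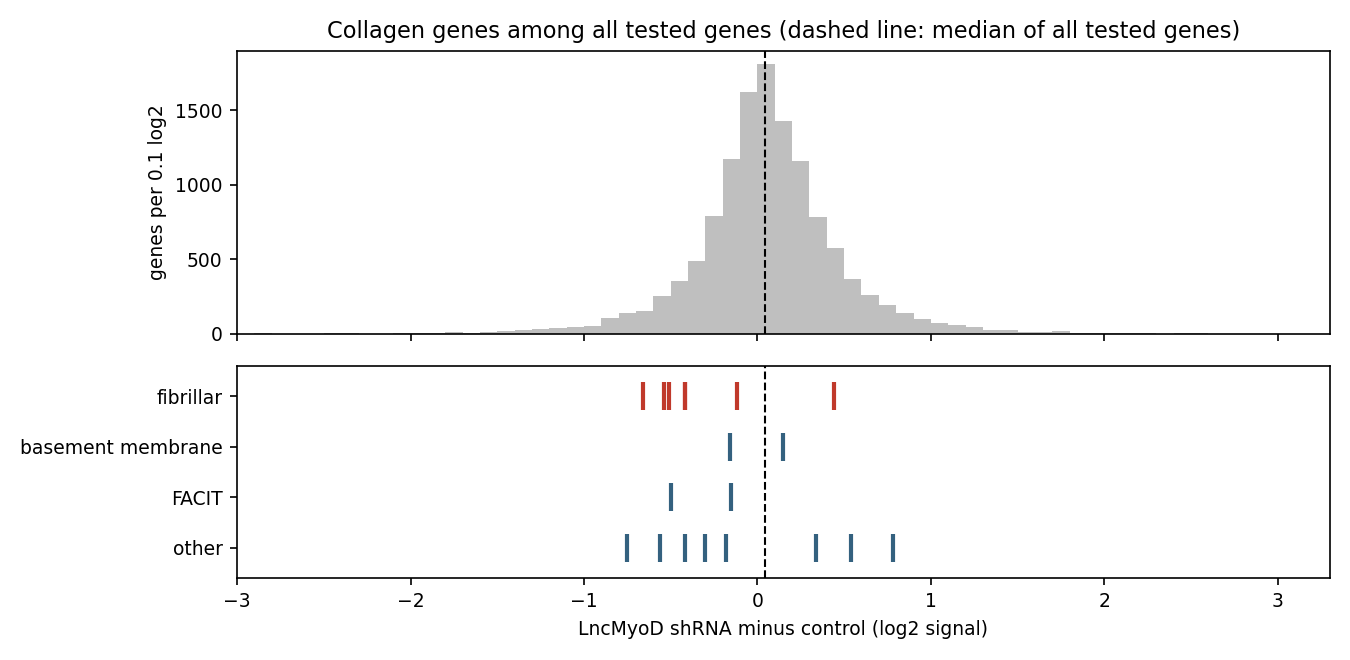
Differences in log2 signal (LncMyoD shRNA minus control) of all 12408 tested genes as a histogram above, and of the 19 tested collagen genes by class below, 1 stroke per gene. Most fibrillar genes lie between -0.66 and -0.42, left of the dashed median of all genes at 0.05, while the other collagens spread from -0.75 to 0.78.

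Among the fibrillar collagens, 5 of 7 tested genes fell, Col5a3 rose and Col2a1 did not pass, with a median of -0.42. The shares were 71.4% lower and 14.3% higher, beside 22.8% and 35.7% of all tested genes. The decreases with the smallest SE in this class were those of Col5a1 and Col5a2. Both are chains of type V collagen, which nucleates fibrils and sets their width. Col5a1 was at 10.46, 10.54 and 10.58 on the shRNA arrays, against 11.17, 11.23 and 11.16 on the control arrays. No array of either group reached into the range of the other, and the means were 10.53 ± 0.060 and 11.19 ± 0.037 (SD, n = 3 each). The decrease was 1.58-fold, or -0.66 on the log2 scale (SE 0.049, limma adjusted p = 2.06e-07), and 2 further probe sets of Col5a1 differed by -0.52 and -0.60.

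Col5a2, the partner chain, was at 11.21, 11.19 and 11.25 on shRNA arrays, against 11.76, 11.77 and 11.74 on control arrays, on its brighter probe set. This was a decrease of 0.54 (SE 0.041, limma adjusted p = 2.32e-07). Its dimmer probe set was at 9.60, 9.50 and 9.65 in shRNA samples, against 11.27, 11.21 and 11.24 in controls, a difference of -1.66 (SE 0.055, limma adjusted p = 3.04e-10). Both probe sets separated the groups completely, but the sizes they gave, 1.45-fold and 3.16-fold, were far apart, so the size of the Col5a2 decrease is not settled.

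The third type V chain moved the other way. Col5a3 was at 7.75, 7.76 and 8.00 on shRNA arrays and at 7.62, 7.33 and 7.26 on control arrays, an increase of 0.44 (SE 0.12, limma adjusted p = 0.00794). The lowest shRNA array stood above the highest control array by a small margin. A second probe set of Col5a3 was too dim to be tested.

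Col3a1, the type III chain that forms fibrils together with type I in extensible tissues, was at 10.28, 10.32 and 10.42 in shRNA samples, against 11.00, 10.78 and 10.76 in controls. It fell by 0.51 (SE 0.067, limma adjusted p = 3.22e-05), and its dimmer probe set fell by 0.47. Col3a1 and Col5a2 are direct neighbours among the annotated protein-coding genes of chromosome 1, and both fell.

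Type I collagen, the main fibrillar collagen of connective tissue, gave dim signals in these cells. Col1a2 was at 7.60, 7.37 and 7.30 on shRNA arrays, against 7.80, 7.97 and 7.77 on control arrays. It fell by 0.42 (SE 0.11, limma adjusted p = 0.00623), and by 0.58 on its second tested probe set. An untested one was far dimmer and slightly higher in shRNA samples, at a mean of 5.67 there and 5.43 in controls. Col1a1 was at 6.39, 7.00 and 6.88 in shRNA samples, against 7.19, 7.24 and 7.11 in controls, a difference of -0.42 with a wider error (SE 0.15, limma adjusted p = 0.0301). The first shRNA array was well below the others, and without it the Col1a1 difference was -0.24 (limma adjusted p = 0.125). Without control array 1, 2 or 3 it was -0.42, -0.39 and -0.46 (limma adjusted p = 0.0543, 0.0850 and 0.0555). The decrease of Col1a1 therefore stood near the threshold, while that of Col1a2 did not depend on any 1 array.

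Col2a1, the type II chain of cartilage, was at 7.15, 8.11 and 7.82 on shRNA arrays and at 7.76, 7.96 and 7.72 on control arrays. The groups overlapped, and the difference of -0.12 (SE 0.19) did not pass (limma adjusted p = 0.631). Col11a1, Col11a2, Col24a1 and Col27a1 had no probe set above the filter.

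**Figure D2:**
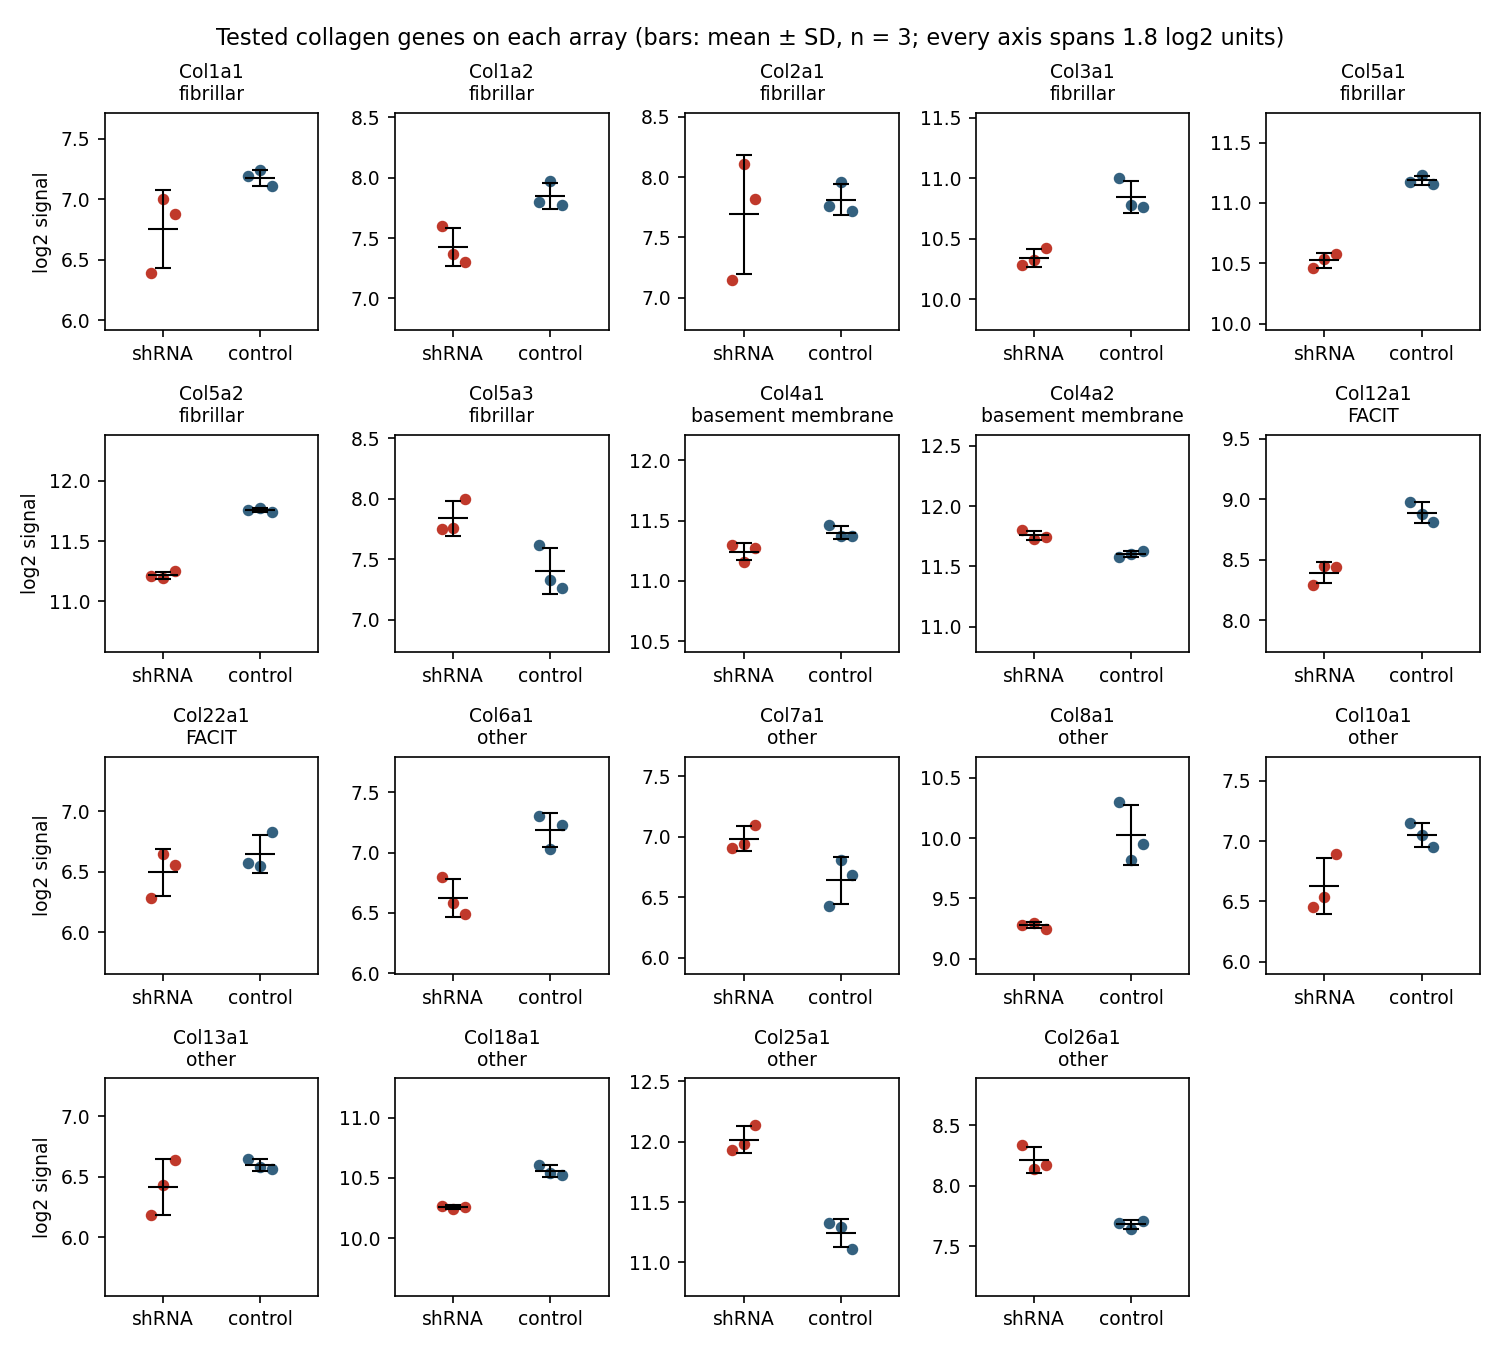
Log2 signal of the 19 tested collagen genes on each array, LncMyoD shRNA at left and control at right in each panel, with mean ± SD (n = 3); every vertical axis spans the same 1.8 units. Col5a1 and Col5a2 show narrow groups that lie apart, Col25a1 the same with shRNA above, and Col1a1 and Col2a1 a first shRNA array far below the others.

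The basement membrane class turned on its main pair of chains, Col4a1 and Col4a2, which assemble together and whose genes lie head to head. By RefSeq's starts on chromosome 8, the transcripts point away from each other and share 22 bases at their beginnings. Col4a1 was at 11.30, 11.16 and 11.27 in shRNA samples, against 11.46, 11.37 and 11.37 in controls, a difference of -0.16 (SE 0.049, limma adjusted p = 0.0177). Its second, slightly dimmer probe set differed by -0.25 (SE 0.048, limma adjusted p = 0.000764). Col4a2 was at 11.80, 11.73 and 11.74 on shRNA arrays, against 11.58, 11.60 and 11.63 on control arrays, a difference of 0.15 (SE 0.041, limma adjusted p = 0.00812). All 3 probe sets separated the groups, Col4a1 downwards and Col4a2 upwards, by about 1.11-fold each on the probe sets that stand for the genes.

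These small changes were sensitive to settings. The Col4a1 difference was -0.11 without shRNA array 2 (limma adjusted p = 0.0966), -0.12 without control array 1 (0.0551) and -0.16 without a variance trend (0.0574). The Col4a2 difference was 0.08 with centred arrays (limma adjusted p = 0.123). For this pair, picked because its chains moved apart, the log2 ratio of Col4a2 to Col4a1 was 0.50, 0.56 and 0.46 on shRNA arrays and 0.12, 0.23 and 0.26 on control arrays, where only the change of 0.30 between groups can be read, not the level. The change was 0.35 with probe sets averaged and 0.26 without control array 1. Scaling, filter and fit settings cannot move such a ratio much, and as the pair was chosen for its pattern the ratio has no test. Col4a3, Col4a4, Col4a5 and Col4a6, chains of more specialised basement membranes such as that of the kidney, were too dim to be tested.

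Ratios of 3 other pairs of chains were likewise computed after their values were seen, and are given without a test. Col5a3 over Col5a1 changed by 1.10. Col1a2 over Col1a1 changed by 0.00. Col5a2 over Col5a1 changed by 0.12 on the brightest probe sets and by -0.51 with the probe sets of a gene averaged, so its direction depended on the probe sets used.

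Of the 9 FACIT genes 2 could be tested. Col12a1, which bridges fibrils and other matrix proteins, was at 8.29, 8.45 and 8.44 in shRNA samples, against 8.98, 8.88 and 8.81 in controls. The groups did not overlap, and the gene fell by 0.50 (SE 0.084, limma adjusted p = 0.000236). Another probe set of Col12a1, too dim to be tested, ran the other way, at 6.38, 6.91 and 6.71 on shRNA arrays and 6.19, 6.21 and 6.11 on control arrays. The decrease of Col12a1 therefore rests on 1 probe set. Col22a1, found at tissue junctions such as that of muscle and tendon, was at 6.28, 6.65 and 6.56 on shRNA arrays and at 6.57, 6.55 and 6.83 on control arrays, and its difference of -0.15 did not pass (limma adjusted p = 0.381). Col9a1, Col9a2, Col9a3, Col14a1, Col16a1, Col19a1 and Col20a1 lay below the filter.

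In the class of other collagens 8 genes were tested. Lower in shRNA samples were 4 of them (50%), beside 22.8% of all tested genes. Higher were 3 (37.5%), close to the 35.7% of all tested genes, and 1 missed the threshold. This class held both the largest decrease and the largest increase of the genes' main probe sets. Col8a1, a short-chain collagen that forms networks, was at 9.28, 9.30 and 9.25 on shRNA arrays, against 10.30, 9.82 and 9.95 on control arrays. It fell 1.68-fold, by 0.75 (SE 0.10, limma adjusted p = 3.77e-05). The shRNA arrays lay within a very narrow band and the first control array stood above the other two. A second probe set of Col8a1 fell by 0.35 (limma adjusted p = 0.00454).

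Col6a1, a chain of the type VI microfilaments that surround muscle fibres, was at 6.80, 6.58 and 6.49 in shRNA samples, against 7.30, 7.03 and 7.23 in controls. It fell by 0.56 (SE 0.13, limma adjusted p = 0.00214), although its signal was close to the lower end of those tested. Its neighbour Col6a2 and the third common chain, Col6a3, were too dim to be tested. Without a filter Col6a3 differed by -0.38 (limma adjusted p = 0.0195), at 4.92 in shRNA samples and 5.30 in controls. Col6a2 differed by -0.50 (limma adjusted p = 0.00957) on a probe set ending in _x_at, at 4.99 in shRNA samples and 5.49 in controls. The other probe set of Col6a2 was at 5.10 in shRNA samples and 5.23 in controls, with groups that overlapped. No direction is therefore given for Col6a2. All these signals lay in a range where background was not separated from signal.

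Col10a1, known from hypertrophic cartilage, was at 6.45, 6.54 and 6.89 in shRNA samples and 7.15, 7.05 and 6.95 in controls, a decrease of 0.42 (SE 0.13, limma adjusted p = 0.0187). That call was lost without shRNA array 1 (-0.33, limma adjusted p = 0.0668) or 2 (-0.38, 0.0624) and without control array 1 (-0.37, 0.0545). Col6a4, Col6a5, Col8a2, Col15a1, Col17a1 and Col23a1 also lay below the filter. Col13a1, a transmembrane collagen of the neuromuscular junction, differed by -0.18 and did not pass (limma adjusted p = 0.282).

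Col25a1 had the largest increase. It encodes a transmembrane collagen that developing mouse muscle needs to be innervated by motor axons. Its signal was 11.93, 11.98 and 12.14 on shRNA arrays, against 11.33, 11.29 and 11.11 on control arrays. The rise was 1.71-fold, 0.78 on the log2 scale (SE 0.065, limma adjusted p = 5.85e-07), with a clear gap between the groups. Only this probe set of Col25a1 was tested, since the other lay below the filter.

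Col26a1 also rose, with 8.34, 8.14 and 8.17 in shRNA samples, against 7.69, 7.64 and 7.71 in controls. The increase was 0.54 (SE 0.093, limma adjusted p = 0.000331). Col7a1, the collagen of the anchoring fibrils below epithelia, was at 6.91, 6.94 and 7.10 on shRNA arrays and at 6.43, 6.81 and 6.68 on control arrays. Its difference of 0.34 (SE 0.13, limma adjusted p = 0.0395) no longer passed without shRNA array 2 (0.36, limma adjusted p = 0.0638) or 3 (0.28, 0.141) or without control array 1 (0.24, 0.135) or 3 (0.36, 0.0725). It was also lost with centred arrays (0.28, 0.103), with spike-in scaling (0.33, 0.0510) and without a filter (0.34, 0.0593).

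Col18a1, a basement membrane proteoglycan core whose end is released as endostatin, gave opposite readings from its probe sets. The brighter, which ends in _s_at and so may also match other transcripts, was at 10.27, 10.24 and 10.26 on shRNA arrays, against 10.61, 10.54 and 10.52 on control arrays. It differed by -0.30 (SE 0.051, limma adjusted p = 0.000258). The other was at 10.30, 10.19 and 10.36 on shRNA arrays and at 10.21, 9.99 and 9.93 on control arrays, a difference of 0.24 (SE 0.074, limma adjusted p = 0.0159), with groups that overlapped. Their mean differed by -0.03 (limma adjusted p = 0.647), so no direction can be given for the gene as a whole. Which of the transcripts from the starts printed above each probe set reads was not tested.

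**Figure D3:**
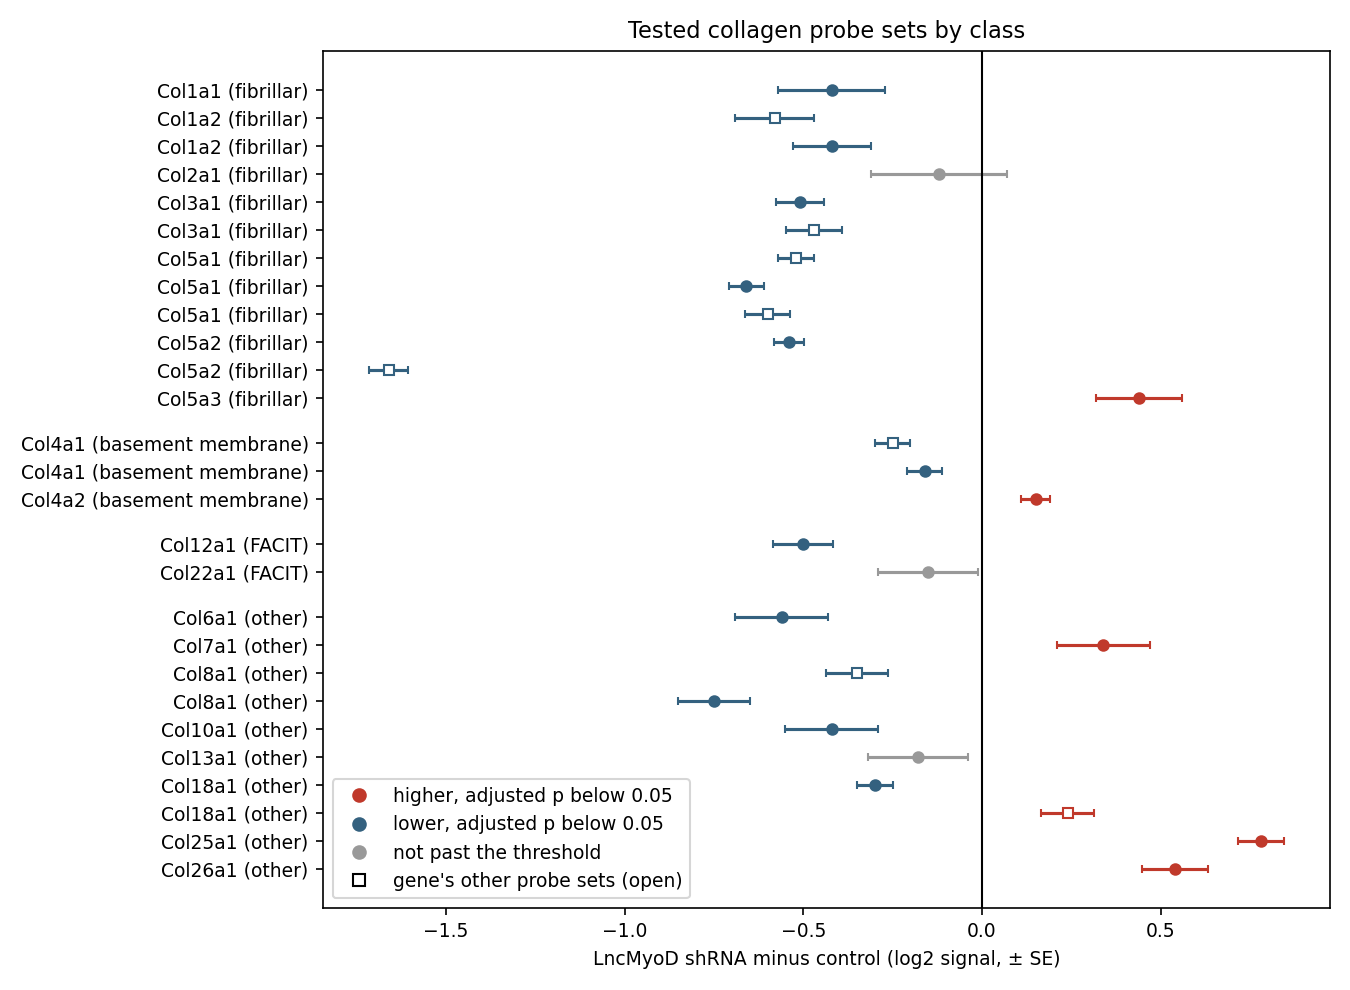
Difference in log2 signal (LncMyoD shRNA minus control, ± SE) of the 27 tested collagen probe sets by class, filled circles for each gene's brightest probe set and open squares for its others. Of the 12 fibrillar probe sets 10 lie below -0.4, with Col5a2 at -1.66 on one of its own, and Col18a1 has 1 probe set on each side of 0.

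At the level of probe sets, 18 of 27 tested collagen probe sets were lower, 6 higher and 3 not past the threshold. Those shares were 66.7% lower and 22.2% higher. Over all tested probe sets 23.5% were lower and 30.4% higher, or 53.9% in either direction. Of the 7 collagen genes with more than 1 tested probe set, Col1a2, Col3a1, Col4a1, Col5a1, Col5a2 and Col8a1 fell on each of them, and Col18a1 was the exception. The 23 untested genes had mean signals of 5.04 to 6.40 on their brightest probe set. Without a filter Col20a1 (-0.73) and Col6a3 were lower and 0 of them higher in limma's test. The Col20a1 value came from a probe set ending in _s_at, at 6.03 in shRNA samples and 6.76 in controls. On each of the dimmer probe sets of Col20a1 the groups overlapped. Col6a2 passed only on a probe set ending in _x_at. Such a probe set does not stand for a gene that has another, so Col6a2 is not counted as lower here. Among all 5785 genes below the filter 3.96% were lower and 4.51% higher, or 8.47% in either direction. Over all 42 collagen genes 4 were then higher and 13 lower, or 9.52% and 31%. Over all genes 24.6% were then higher and 15.8% lower, or 40.4% in either direction. The collagen median was -0.04, beside 0.02 over all genes.

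Relative to each gene's own mean, the fibrillar median was -0.31, -0.26 and -0.17 on the shRNA arrays and 0.22, 0.27 and 0.14 on the control arrays. The medians of the other collagens were closer, at -0.12, -0.12 and 0.09 on shRNA arrays and 0.18, 0.10 and 0.08 on control arrays. Over all tested genes they were -0.00, 0.04 and 0.04 on shRNA arrays and 0.01, -0.04 and -0.05 on control arrays. The difference between the classes was not tested.

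Among genes that fold and modify collagen in the endoplasmic reticulum, 5 of the 16 that could be tested, out of 18, were higher and 4 lower, with a median difference of 0.00. Those shares of 31.2% and 25% lie near the 35.7% and 22.8% of all tested genes, and 8 were lower once arrays were centred. Plod2, the lysyl hydroxylase that prepares the ends of fibrillar chains for cross-linking, was at 10.23 ± 0.082 in shRNA samples and 12.08 ± 0.053 in controls (SD, n = 3 each). The difference of -1.84 (SE 0.052, limma adjusted p = 7.5e-11), a 3.59-fold decrease, was larger in size than that of any collagen probe set, and its second tested probe set fell too. P4ha1, a catalytic subunit of prolyl 4-hydroxylase, fell by 0.74 (SE 0.048), and Serpinh1, the collagen chaperone HSP47, fell by 0.64 (SE 0.044), each also on a second probe set. P4ha2, an alternative catalytic subunit, rose by 0.58 (SE 0.063), and Crtap, a partner of prolyl 3-hydroxylase, rose by 0.57 (SE 0.054). P4ha3, of the same family as P4ha2, rose by 0.47 (SE 0.13), with a control mean of 6.53 close to the filter. Smaller changes were those of Plod1 (0.33), Fkbp14 (0.18) and the prolyl 3-hydroxylase P3h2 (-0.27). P3h2 lost its call when shRNA array 2 was left out (-0.25, limma adjusted p = 0.0535) or 3 (-0.21, 0.0735). With the probe sets of a gene averaged, Plod1 was at 0.08 (limma adjusted p = 0.355) and Fkbp14 at 0.20 (0.0702). The summed level of the whole list was 15.25 to 15.33 on shRNA arrays and 15.52 to 15.57 on control arrays.

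Among the genes of procollagen export, cleavage and cross-linking, 9 of 16 could be tested, 4 of them higher and 3 lower (median difference 0.14), or 44.4% and 33.3% beside 35.7% and 22.8% of all tested genes. Creb3l1, a transcription factor of the secretory pathway that activates Col1a1 in mouse bone, fell by 0.78 (SE 0.077, limma adjusted p = 2.37e-06). Adamts3, which removes procollagen N-propeptides, fell by 0.59 (SE 0.15). Of the lysyl oxidases, the cross-linking enzymes, Loxl1 fell by 0.84 (SE 0.062) while Loxl3 (0.81, SE 0.081) and Lox (0.33, SE 0.097) rose, although the call on Lox was lost when shRNA array 1 was left out (0.27, limma adjusted p = 0.0526). Pcolce2, an enhancer of C-propeptide removal, rose by 1.16 (SE 0.15), but its control mean of 6.39 lay below the filter. The related Pcolce rose by 0.12, a call lost without shRNA array 2 (0.12, limma adjusted p = 0.0539) or control array 2 (0.10, 0.0658). It was 0.06 (limma adjusted p = 0.170) with centred arrays, and also lost with spike-in scaling (0.11, 0.0651) and without a variance trend (0.12, 0.0614).

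Receptors and fibril-binding proteins included 9 tested genes of 14, of which 3 rose and 0 fell, with a median of 0.10. The 33.3% higher is close to the 35.7% of all tested genes, of which 22.8% were lower. In the same list 2 fell with centred arrays. Itga1, the alpha chain of a collagen-binding integrin, was at 8.19 in shRNA samples and 7.41 in controls and rose by 0.79 (SE 0.098, limma adjusted p = 2.05e-05). Ddr1, a receptor tyrosine kinase activated by collagen, rose by 0.24 (SE 0.067) on its brightest probe set. Of its 7 other tested probe sets 2 were also called higher, and the average of all gave 0.13. Fn1, fibronectin, differed by 0.13 on its brightest probe set, and its second was not called. The value was 0.02 (limma adjusted p = 0.836) with probe sets averaged and 0.06 (0.194) with centred arrays. It also did not pass with spike-in scaling (0.12, 0.0815), without a variance trend (0.13, 0.0748), without control array 2 (0.11, limma adjusted p = 0.101) or 3 (0.12, 0.0673) or without shRNA array 3 (0.10, 0.0964). Of 7 collagen-cleaving proteases 2 were tested, and 1 of them, the membrane-bound Mmp14, rose by 0.26 (SE 0.054).

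Of the other basement membrane components 4 of 11 tested genes were higher and 4 lower (median difference -0.05). Each share was 36.4%, beside 35.7% higher and 22.8% lower among all tested genes. Lamb1 (0.82, SE 0.049) and Lama5 (0.72, SE 0.083), laminin chains, rose, as did Pxdn (0.47, SE 0.048), the peroxidase that cross-links type IV collagen. Lamc1, the laminin gamma chain that joins most laminins, fell by 0.52 (SE 0.056), and Hspg2, perlecan, fell by 0.46 (SE 0.064). Lama3 fell by 0.35 (SE 0.070). The small differences of Lamb2 (0.14) and Nid2 (-0.11) depended on scaling, fit settings and single arrays. Lamb2 was at 0.08 with centred arrays (limma adjusted p = 0.293), 0.10 with quantile normalization (0.157) and 0.13 with spike-in scaling (0.103), and did not pass without a filter (0.0574) or a variance trend (0.0852). It missed the threshold too when the array left out was shRNA array 1 (0.15, limma adjusted p = 0.0796), 2 (0.14, 0.0994) or 3 (0.15, 0.0692) or control array 1 (0.09, 0.132). Nid2 did so without shRNA array 1 (-0.09, limma adjusted p = 0.114) or 2 (-0.11, 0.0757) or control array 2 (-0.12, 0.0607) or 3 (-0.09, 0.103), with spike-in scaling (-0.12, 0.0678), without a filter (-0.11, 0.0537) and without a variance trend (-0.11, 0.0867).

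**Figure D4:**
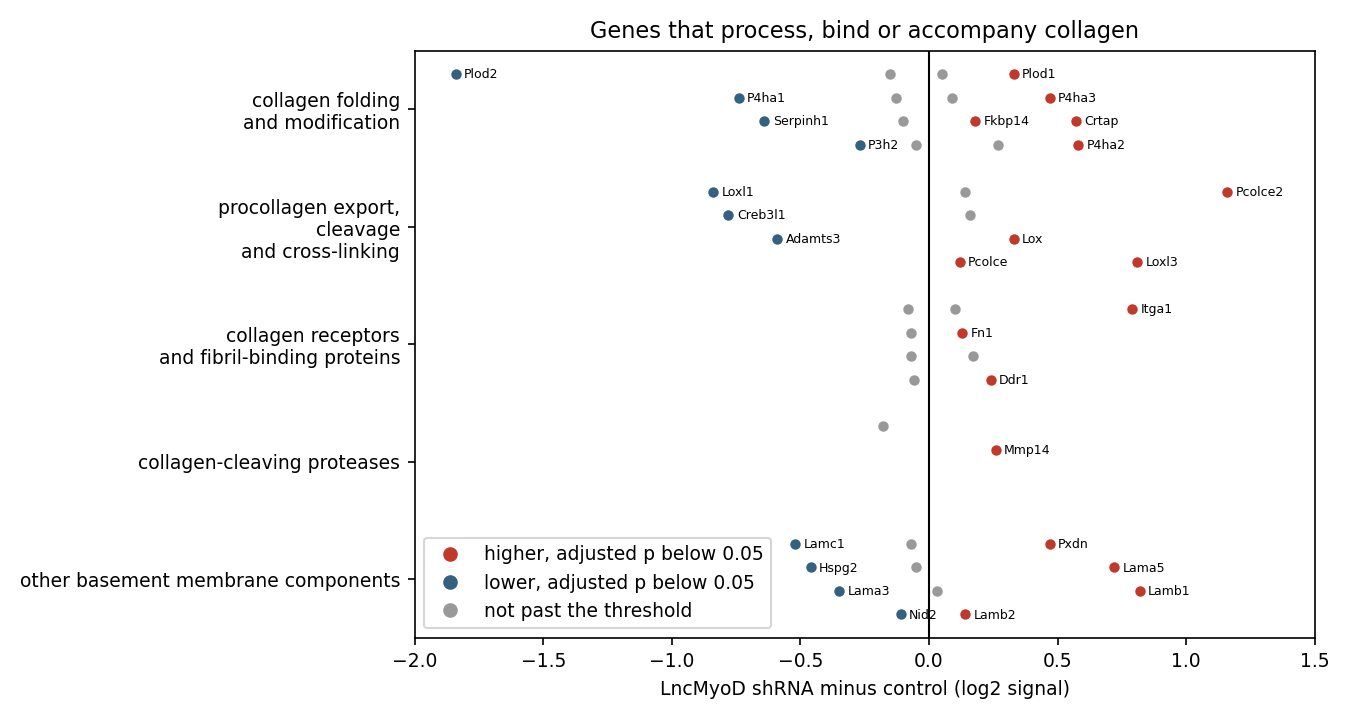
Differences in log2 signal (LncMyoD shRNA minus control) of tested genes that fold, process, bind, cleave or accompany collagen, 1 row of points per list and names beside those past the threshold. Plod2 stands far to the left at -1.84 and Pcolce2 far to the right at 1.16, and most other points lie between -0.84 and 0.82.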

How the data were processed

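Transcript levels were measured on 6 Affymetrix mouse arrays. The deposited table holds 1 log2 signal per probe set and array, normalized by the authors; values between 4.48 and 14.64, with a median of 7.23 on each array, show the log2 scale. Per the submitters' processing notes PLIER and MAS5 were used; their versions and settings are unstated. Without detection calls a dim signal could not be told from background, and the 3 arrays per group limit the precision.

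From these values 64 control probe sets and the 40% of the others with the lowest mean (18015) were left out, and 27022 were tested with limma 3.58.1 in R 4.3.3 (lmFit, eBayes with trend, no covariate). Benjamini-Hochberg adjustment ran across the whole tested set. A gene is represented by its brightest probe set, one ending in _x_at only without another. Of 45 collagens in the class lists, 3 had no probe set with 1 symbol and are not analysed here. The members and lists were chosen with earlier results of these data known. Every member is named, values on each array are given for genes past the threshold and at least 0.5 in size, for the type I and type IV pairs, and for others near the threshold or with discordant probe sets, the last chosen after their values were seen. Of each pathway list up to 4 genes per direction with the smallest p are named, and P4ha3 is named besides. The fit was tested on simulated data. Alternatives covered scaling, filter, choice of probe sets, variance trend, replicate block and leaving out each array.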

Additional observations from a re-analysis of the deposited data

How the results depend on the processing

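Of the 16 collagen genes past the threshold, 10 were past it in each of the 15 alternatives that tested them: Col1a2, Col3a1, Col5a1, Col5a2, Col12a1, Col6a1 and Col8a1 lower, and Col5a3, Col25a1 and Col26a1 higher. The other 6 each lost a call at least once, and 1 of them reversed: Col18a1 was at 0.24 (limma adjusted p = 0.0158) without probe sets ending in _x_at or _s_at, which leaves its other probe set to stand for the gene. With centred arrays 3 collagens were higher, 0 of them of type IV, and the type IV median was -0.07. Without a filter, which adds the 23 dim genes, the medians were -0.04 over all collagens, -0.12 for fibrillar, 0.09 for type IV, -0.05 for FACIT and -0.12 for other collagens, and 2 FACIT genes were lower. With the lowest 60% of probe sets left out, 9 collagens were tested, 2 higher and 7 lower, with medians of -0.50 for all collagens, -0.54 for fibrillar (0 higher, 3 lower) and -0.50 for FACIT genes, and 1 higher and 2 lower among other collagens. Averaging probe sets gave medians of -0.20 for all collagens and -0.11 for other collagens, and leaving out _x_at and _s_at probe sets gave -0.18 and 0.03. Without a variance trend 0 type IV genes were lower. In the processing lists, folding genes lower numbered 8 with centred arrays, 7 with quantile normalization and 7 (3 higher) with averaged probe sets; receptor genes lower numbered 2, 1 and 2 in these settings and 1 under the 60% filter, under which 2 export genes were higher. Same-numbered arrays of the groups showed no shared deviation (r = -0.134, -0.0616 and 0.0307). With 3 arrays per group this cannot settle whether they were prepared as pairs. The replicate block left 5 collagens higher and 11 lower, and the collagen median at -0.30, while Fn1, Lamb2 and Nid2 lost their calls (limma adjusted p = 0.0531, 0.0526 and 0.0673). Leaving out single arrays gave 4 to 5 collagens higher and 8 to 11 lower, medians of -0.33 to -0.24 for all collagens, -0.50 to -0.39 for fibrillar genes, -0.03 to 0.02 for type IV, 0 to 1 type IV genes lower and 0 to 1 receptor genes lower. Causes of these shifts were not tested beyond the number of genes each setting admits. Dim collagens near a signal of 6.50 are limited by an unmeasured background.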
